A study of Mus musculus with 4 samples.

Results

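Genes that take up, store and export iron in the liver, and the hepcidin genes, were examined in the livers of F1 mice. The 10 genes chosen by name were Hamp and Hamp2 (hepcidins), Trf (transferrin), Tfr2 and Tfrc (transferrin receptors), Fth1 and Ftl1 (ferritin chains), Slc40a1 (ferroportin), Steap3 (a ferrireductase) and Hpx (hemopexin). 9 of the 10 were among the 8797 genes with an expression value. Trf was not analysed here. 5 of the 9 (Tfr2, Tfrc, Ftl1, Steap3 and Hpx) also had a B6-allele frequency, as did 3632 genes in all. The mice were 4 females at 5 months of age from reciprocal crosses of the inbred strains B6 and MSM. Both strains belong to the house mouse but to different subspecies, and every mouse carried 1 chromosome set of each. In 2 mice the mother was MSM and the father B6 (the MSM mother cross), and in 2 the mother was B6 and the father MSM (the B6 mother cross). The mice carried no engineered allele and received no treatment that the labels name. Poly(A) RNA of whole liver was sequenced. Each gene had an FPKM value in each mouse, which is the number of fragments scaled to transcript length and library size. The B6-allele frequency is the B6 share of the reads that a strain difference could assign to either allele, and 0.5 is equal use of both.

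Iron reaches hepatocytes bound to transferrin, which is taken up through transferrin receptors, and its ferric iron is reduced in endosomes before it enters the cytosol. Iron that is not used is stored inside ferritin shells built of heavy and light chains, and it leaves the cell only through ferroportin. Hepatocytes secrete hepcidin, a peptide hormone that binds ferroportin and causes its breakdown, and they raise hepcidin transcription when BMP signaling through SMAD proteins or IL6 signaling through STAT3 is active. Inside cells, iron regulatory proteins bind hairpins called iron-responsive elements (IREs). Binding in a 5′ UTR blocks translation, and binding in a 3′ UTR protects the mRNA from decay.

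The IREs are shown because they join 4 of these genes that differ widely in mRNA level below. An IRE was searched as a C, 5 stem bases, the loop CAGTGN and 5 bases that pair with the stem, with G-U pairs allowed, on the sense strand of GENCODE M21 transcripts (GRCm38). The search matched 4 of the 10 genes, and 294 of all 21877 protein-coding genes (1.34%). Fth1, Ftl1 and Slc40a1 each had 1 match in the 5′ UTR of exon 1, and Tfrc had 4 in the 3′ UTR of its last exon, exon 19. Each line gives 30 bases of the transcript as DNA letters, with the 6 loop bases in capitals:
Tfrc element 1: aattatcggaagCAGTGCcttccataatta
Tfrc element 2: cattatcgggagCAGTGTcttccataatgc
Tfrc element 3: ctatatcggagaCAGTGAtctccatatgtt
Tfrc element 4: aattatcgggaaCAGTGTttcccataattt
Fth1: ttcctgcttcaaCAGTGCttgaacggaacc
Ftl1: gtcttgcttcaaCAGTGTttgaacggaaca
Slc40a1: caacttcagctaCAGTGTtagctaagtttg

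The Fth1 element lies at chr19:9982732-9982761 on the + strand, the Ftl1 element at chr7:45459778-45459807 on the - strand and the Slc40a1 element at chr1:45925464-45925493 on the - strand. The Tfrc elements lie at chr16:32631219-32631248, chr16:32631598-32631627, chr16:32631663-32631692 and chr16:32631710-32631739 on the + strand. No match was found in annotated transcripts of Hamp, Hamp2, Trf, Tfr2, Steap3 or Hpx. A match describes the letters only, elements that depart from the pattern would be missed, and binding was not measured.

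The promoters of the hepcidin genes are shown because these genes lie side by side and their levels are compared mouse by mouse below. The 250 bases before the start were taken from RefSeq (GRCm38.p6), at chr7:30944030-30944279 for Hamp and chr7:30924182-30924431 for Hamp2, both on the - strand. In GENCODE M21 the Hamp2 gene reaches to 30924681, so the Hamp2 window lies inside that span. Positions given for Hamp2 hold for the RefSeq start. Promoters of 8 of the 10 genes were in the RefSeq table used. The capitals mark the hexamer GGCGCC, the core of the BMP-responsive element of hepcidin promoters, with the aligned bases of Hamp2, and the STAT site TTCNNNGAA:
Hamp upstream: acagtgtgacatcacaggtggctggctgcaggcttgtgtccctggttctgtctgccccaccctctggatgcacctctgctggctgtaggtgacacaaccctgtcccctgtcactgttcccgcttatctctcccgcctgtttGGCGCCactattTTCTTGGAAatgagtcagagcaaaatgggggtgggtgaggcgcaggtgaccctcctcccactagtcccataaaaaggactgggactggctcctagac
Hamp2 upstream: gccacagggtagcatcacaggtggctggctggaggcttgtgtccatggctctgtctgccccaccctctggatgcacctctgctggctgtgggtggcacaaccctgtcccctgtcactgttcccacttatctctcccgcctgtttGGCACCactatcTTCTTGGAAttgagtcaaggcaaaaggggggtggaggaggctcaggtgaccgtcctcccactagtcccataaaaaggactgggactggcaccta

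Over 247 aligned bases, 227 (91.9%) were identical. The STAT site TTCTTGGAA was the same in both, 97 to 89 bases before the start in Hamp and 94 to 86 in Hamp2. The hexamer lay 109 to 104 bases before the start of Hamp, and the aligned bases of Hamp2, 106 to 101 before its start, differed by G4A (the Hamp base first, position counted from 1 at the 5′ end of the hexamer). Searched on both strands in windows of the same length, GGCGCC was present in 3149 of 32851 promoters (9.59%), among them Hamp and Tfrc, and TTCNNNGAA in 2306 (7.02%), among them Hamp and Hamp2. The motifs do not overlap, and neither sequence is that of the MSM allele.

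Expression of these genes covered a wide range, from storage and secreted proteins among the most abundant liver mRNAs to Steap3 and Tfrc in the lower part of the listed genes. The order by mean FPKM (a level per length) was Ftl1, Hpx, Fth1, Hamp, Hamp2, Tfr2, Slc40a1, Steap3 and Tfrc. The ranges over the 4 mice overlapped between Hpx and Fth1, between Fth1 and Hamp and between Hamp and Hamp2. Within each of the 4 mice, however, Hpx exceeded Fth1 and Hamp exceeded Hamp2, whereas Fth1 exceeded Hamp in 2 mice. These differences were not tested. No other neighbours in this order overlapped. Ftl1, Hpx, Fth1 and Hamp lay at percentiles 99.4 to 99.9 of mean FPKM over all 8797 genes, whereas Steap3 and Tfrc were at percentiles 30.2 and 16.1.

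**Figure D1:**
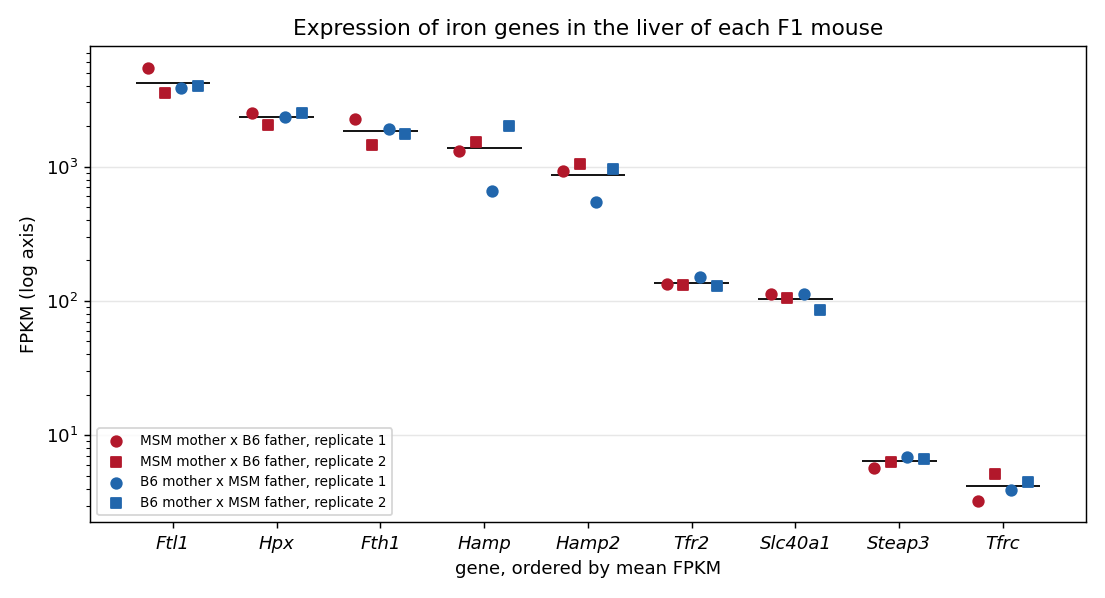
FPKM (log axis) of the 9 genes in each mouse, ordered by mean, with the mean as a black line, red symbols for mice with an MSM mother and blue symbols for mice with a B6 mother. Hamp spread most, from 660.0 to 1995, and the crosses overlapped in every gene except Steap3.

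Hamp, the hormone gene, lies at chr7:30942368-30944032 (mm10), with the related Hamp2 next to it at chr7:30922372-30924681. Whether Hamp2 acts on iron export was not examined. Hamp had FPKM of 1299 and 1528 in the MSM mother cross, against 660.0 and 1995 in the B6 mother cross (1370.5 ± 555, SD, n = 4). The lowest and the highest mouse were both of the B6 mother cross, so the crosses overlapped fully, and the highest value was 3.02 times the lowest. Hamp2 had 922 and 1053 in the MSM mother cross, against 549 and 959 in the B6 mother cross (871 ± 221, n = 4). Replicate 1 of the B6 mother cross was again the lowest mouse, and the other 3 lay close together. The SD of log2(FPKM + 1) within the crosses was 0.81 for Hamp and 0.41 for Hamp2, at percentiles 99.3 and 96.3 of all genes. Both genes were thus among the most variable between mice of the same cross.

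The ratio of Hamp to Hamp2 FPKM was 1.41 and 1.45 in the MSM mother cross, against 1.20 and 2.08 in the B6 mother cross. Replicate 2 of the B6 mother cross therefore stood out by Hamp and not by Hamp2. The longest run of bases shared by a Hamp and a Hamp2 transcript was 87, shorter than a read, although reads with few differences between the genes could still be split between them. Neither gene had a B6-allele frequency, so the contribution of each strain's allele was not measured. Between the crosses, the log2 expression difference (MSM mother minus B6 mother) was 0.30 for Hamp (SE 0.50, 95% interval -0.95 to 1.54, limma adjusted p = 0.85) and 0.44 for Hamp2 (SE 0.29, interval -0.29 to 1.17, limma adjusted p = 0.65). Neither passed the test, and the intervals leave room for differences in either direction.

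The genes with the FPKM pattern most like each hepcidin gene were found by the root mean square difference in centred log2(FPKM + 1) over the 4 mice. For Hamp these were Tstd1 (0.14), Mir692-2a (0.23) and Mir703 (0.23), and Hamp2 came at rank 7 (0.29). For Hamp2 they were Ntrk2 (0.069), Klf1 (0.077) and Apoa5 (0.081), with Hamp at rank 1133. With 4 mice and 8797 genes, close patterns are easily found, and they are given as a description.

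The other genes that control hepcidin came from a list of 29 ligands, receptors, SMAD proteins, proteases and transcription factors, of which 27 were listed with an expression value. None of the 27 passed the limma test between the crosses, none at an unadjusted p under 0.05 either, and the median log2 difference was -0.15 against 0.019 over all genes. The most abundant were Fgl1, a secreted hepatocyte protein that lowers BMP signaling, and Tmprss6, the protease that cleaves the BMP co-receptor hemojuvelin. Fgl1 had 311 and 281 FPKM in the MSM mother cross and 421 and 299.8 in the B6 mother cross, and Tmprss6 had 215 and 190.0 against 243 and 209. Both were highest in replicate 1 of the B6 mother cross, the mouse with the lowest Hamp and Hamp2. Genes of the pathways that raise hepcidin, such as Smad1 (4.65 FPKM) and Stat3 (31.4), were also highest in that mouse. Others, such as Smad4 and Creb3l3, were not. These were named after their values were seen, and a relation to hepcidin was not tested.

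Id1, Smad6 and Atoh8, known targets of BMP signaling, were picked from the list after their values were seen and are given without a test. Id1 had 7.03 and 5.10 FPKM in the MSM mother cross, against 6.21 and 15.1 in the B6 mother cross. Smad6, an inhibitory SMAD, had 4.01 and 2.67 against 4.02 and 5.50. Atoh8, a transcription factor, had 6.08 and 5.37 against 6.45 and 9.17. All 3 were highest in replicate 2 of the B6 mother cross, the mouse with the highest Hamp. They were not lowest in replicate 1 of that cross, where Hamp was lowest.

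**Figure D2:**
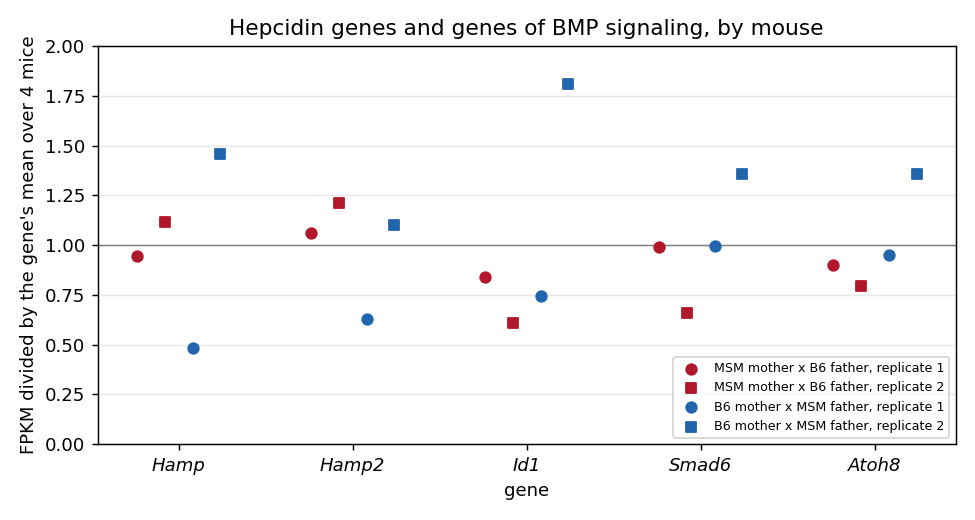
FPKM of the hepcidin genes and of Id1, Smad6 and Atoh8 in each mouse, divided by the gene's mean over the 4 mice (red for an MSM mother, blue for a B6 mother). Replicate 2 of the B6 mother cross is highest for Hamp (1.46), Id1 (1.81), Smad6 (1.36) and Atoh8 (1.35), and replicate 1 of that cross is lowest for both hepcidin genes (0.48 and 0.63).

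Markers of blood and inflammation also varied between these mice, and their part in the hepcidin values was not tested. Of 9 erythroid genes, 5 were listed, and their summed FPKM was 579.9 and 218 in the MSM mother cross, against 1216 and 658 in the B6 mother cross. Alas2 was at 4.67 to 8.69 FPKM. Replicate 1 of the B6 mother cross was thus highest in this sum and lowest in Hamp and Hamp2. The next highest sum was that of replicate 2 of the same cross, the mouse with the highest Hamp. Hbb-bs was also highest in replicate 2 (23.1 FPKM, against 14.3 in replicate 1). All 10 acute-phase genes were listed, with summed FPKM of 3486 and 3466 against 3002 and 3151. The sum rests mostly on Hp and Itih4. Itih4 was lower with an MSM mother (736 and 802 against 1087 and 990.1 FPKM), and 9 of the 10 genes were higher. Saa1, for instance, had 77.5 and 57.8 against 32.7 and 33.4. By limma 3 of the 10 had an unadjusted p under 0.05 between the crosses, against 780 of all 8797 genes, and 0 were called. Kupffer cell markers (8 of 10 listed) summed to 214 and 182 against 265 and 243, and endothelial markers (6 of 6 listed) to 115 and 109.6 against 122 and 128. 0 of the 8 Kupffer cell and 0 of the 6 endothelial markers were higher with an MSM mother, against all 6 listed hepatocyte markers. By limma 4 of the 8 Kupffer cell markers, 0 of the 6 endothelial markers and 2 of the 5 erythroid genes had an unadjusted p under 0.05. None of these was called. Of 4 stellate cell markers only Reln was listed, at 5.25 to 6.72 FPKM. Of the hepatocyte markers, 6 of 7 were listed (all but Alb), with summed FPKM of 12104 to 17038, and no biliary marker of 4 was listed. In whole liver, fewer cells of a type and less RNA per cell cannot be told apart.

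Slc40a1 encodes ferroportin, the iron exporter that hepcidin binds (chr1:45908068-45926523). Its FPKM was 112 and 105 in the MSM mother cross, against 113 and 85.7 in the B6 mother cross (104 ± 12.7, n = 4). The highest and the lowest mouse were again those of the B6 mother cross, but the highest was only just above replicate 1 of the MSM mother cross. The lowest Slc40a1 was in the mouse with the highest Hamp, and a relation was not tested. Hepcidin acts on the ferroportin protein, which was not measured. The log2 difference between the crosses was 0.13 (SE 0.18, limma adjusted p = 0.81), and no frequency was available.

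Tfr2, which senses transferrin-bound iron at the hepatocyte surface, was far more abundant than Tfrc, the receptor that most cells use for uptake. Tfr2 (chr5:137569840-137587481) had 134 and 131 FPKM in the MSM mother cross, against 151 and 129 in the B6 mother cross (136 ± 10.2, n = 4), so all mice were close to each other. Tfrc (chr16:32608920-32632794) had 3.26 and 5.18 against 3.92 and 4.45 (4.20 ± 0.81, n = 4), with the crosses overlapping. The ratio of Tfr2 to Tfrc FPKM was 25.2 to 41.1 in the 4 mice. Neither gene passed the expression test (limma adjusted p = 0.88 and 0.99).

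The receptors were imbalanced in opposite directions. The B6-allele frequency of Tfr2 was 0.550 and 0.552 in the MSM mother cross, against 0.545 and 0.550 in the B6 mother cross (mean 0.549, SD 0.0028). All 4 mice lay above 0.5 and differed little. The frequency of Tfrc was 0.409 and 0.407 against 0.402 and 0.379 (mean 0.399, SD 0.014), below 0.5 in all 4 mice. On the log2 odds scale, where 0 is equal use, Tfr2 was at 0.29 (SE 0.04, limma adjusted p = 0.020) and Tfrc at -0.59 (SE 0.05, limma adjusted p = 0.0079). The MSM allele of Tfrc thus gave 1.5 times the reads of the B6 allele, and the B6 allele of Tfr2 gave 1.22 times those of the MSM allele. With any 1 mouse left out, the adjusted p of Tfrc was 0.052 to 0.065 and that of Tfr2 0.086 to 0.11.

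None of the nearest genes with a frequency was called. Around Tfrc, Ubxn7 (0.484), Pcyt1a (0.511), Tnk2 (0.558) and Fyttd1 (0.513) started 35.0 to 277 kb away and none passed the test. Around Tfr2, Gigyf1 (0.509), Gnb2 (0.510), Mospd3 (0.543) and Pcolce (0.460) started 31.2 to 51.3 kb away, and none passed either. The differences between each receptor gene and its neighbours were not tested.

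Steap3, the endosomal ferrireductase that acts on iron released from transferrin, had the largest imbalance of the 5 genes. It lies at chr1:120190757-120272705 on the - strand. Its FPKM was low, at 5.75 and 6.35 in the MSM mother cross, against 6.89 and 6.71 in the B6 mother cross (6.43 ± 0.51, n = 4). Both mice with a B6 mother were above both with an MSM mother. Steap3 was the only 1 of the 9 genes whose crosses did not overlap, which happened in 42.4% of all 8797 genes. The log2 difference of -0.15 (SE 0.11, limma adjusted p = 0.68) did not pass the test.

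The B6-allele frequency of Steap3 was 0.834 and 0.804 in the MSM mother cross, against 0.865 and 0.815 in the B6 mother cross (mean 0.829, SD 0.027). Every mouse was above 0.8, the threshold that the study uses for a B6-biased gene, and the crosses overlapped. Steap3 was the only 1 of the 5 genes past 0.8, a level reached by 67 of 3632 genes (1.84%), and none of the 5 was below 0.2. Its log2 odds were 2.29 (SE 0.13, 95% interval 1.91 to 2.67, limma adjusted p = 0.0048), which is 4.90 reads of the B6 allele for each read of the MSM allele. The call held in all 10 alternatives tried, with adjusted p of 0.0014 to 0.043.

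Tmem37 (0.422) and Dbi (0.540) started 199 and 152 kb away on the side of lower coordinates, and Insig2 (0.565) and Ddx18 (0.498) started 1059.9 and 1295 kb away on the other side. Tmem37 was called toward MSM (limma adjusted p = 0.018), Dbi and Insig2 toward B6 (limma adjusted p = 0.047 and 0.029), and Ddx18 was not called. Within 2000 kb on each side, 10 other genes had a frequency, none of them at 0.8 or above, and their means ran from 0.199 in Tfcp2l1 to 0.571 in Tmem177, which were named after their values were seen. Tfcp2l1 was past the threshold of 0.2 for an MSM-biased gene (log2 odds -2.02, limma adjusted p = 0.0028). The difference between Steap3 and these genes was not tested.

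**Figure D3:**
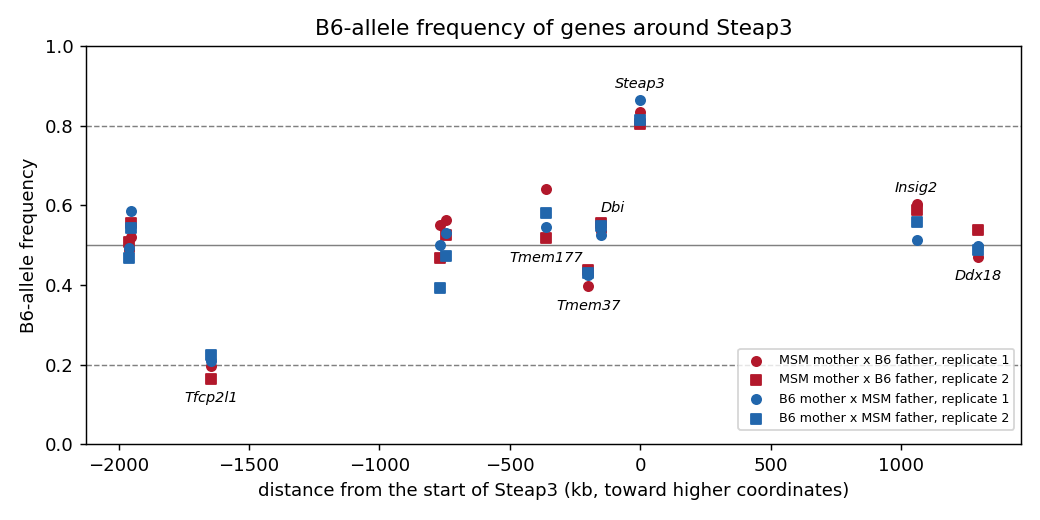
B6-allele frequency in each mouse of the genes within 2000 kb of the start of Steap3, by distance in kb (red for an MSM mother, blue for a B6 mother), with lines at 0.5, 0.8 and 0.2. The 4 values of Steap3 (0.804 to 0.865) lie above those of all 10 other genes in the window, and those of Tfcp2l1 (0.165 to 0.224) lie lowest.

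Hpx encodes hemopexin, the plasma protein that carries free heme to the liver (chr7:105591613-105600137). Its FPKM was 2524 and 2048 in the MSM mother cross, against 2334 and 2512 in the B6 mother cross (2354 ± 222, n = 4), and the crosses overlapped. The log2 difference was -0.091 (SE 0.21, limma adjusted p = 0.89). The B6-allele frequency was 0.541, 0.545, 0.549 and 0.535, with a mean of 0.543 and an SD of 0.0059, so the B6 share of the reads was slightly above 0.5 in every mouse. The log2 odds were 0.25 (SE 0.04, limma adjusted p = 0.030). This call was lost when each mouse was centred on the median of all genes (0.19, limma adjusted p = 0.056), with a variance trend (limma adjusted p = 0.074) and with any 1 mouse left out (limma adjusted p = 0.11 to 0.14). Over all genes with a frequency the median was 0.510, and it lay above 0.5 in each mouse (0.509 to 0.512). The part of read mapping in small imbalances such as those of Hpx and Tfr2 was not tested. Of the nearest genes, Trim12c (0.565) and Arfip2 (0.640) were called toward B6, Smpd1 (0.456) was called toward MSM and Trim3 (0.454) was not called.

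Fth1 and Ftl1 encode the heavy and light chains of ferritin, the storage shell. Fth1 (chr19:9980598-9985098) had 2271 and 1447 FPKM in the MSM mother cross, against 1906 and 1747 in the B6 mother cross (1843 ± 343, n = 4). Ftl1 (chr7:45457944-45459884) had 5454 and 3558 against 3821 and 3987 (4205 ± 851, n = 4). In both genes replicate 1 of the MSM mother cross was highest and replicate 2 lowest, with the mice of the other cross between them. The ratio of Ftl1 to Fth1 was 2.40, 2.46, 2.00 and 2.28 in the same order of mice, and Ftl1 was the higher in every mouse. The log2 differences between the crosses were -0.0095 (SE 0.26) and 0.17 (SE 0.27), with limma adjusted p of 0.995 and 0.84.

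The frequency of Ftl1 was 0.545 and 0.250 in the MSM mother cross, against 0.600 and 0.763 in the B6 mother cross (mean 0.540, SD 0.21). The mice of the same cross differed by more than those of any other of the 5 genes, and the values fell on both sides of 0.5. Its log2 odds of 0.24 (SE 0.42, limma adjusted p = 0.68) were not called. The nearest genes with a frequency, Etfb (0.518), Cebpa (0.708), Gm7367 (0.588) and Dgat2 (0.673), started 2016 to 53723 kb away, and none was called. Ftl1 shares a run of 524 bases with a transcript of Ftl1-ps1 and 306 with Ftl2-ps, which are annotated copies without a value in the tables used. Reads of the copies could be placed at Ftl1 or the reverse, so its FPKM and frequency are uncertain. Frequencies such as 0.250 and 0.600 are also simple fractions, which few allele-assigned reads can give. Etfb was likewise at 0 and 1 in the MSM mother cross. The numbers of reads are not given, and their part in the spread of Ftl1 was not tested. Fth1 shared at most 42 bases with the copies examined, and it had no frequency.

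Position separated genes with and without a precise frequency. Of the 8797 genes, 8414 had a position in GENCODE M21 and are counted here. Genes starting beyond 100 Mb on chromosomes 1 to 15 and X, or beyond 10 Mb on chromosomes 16 to 19, had a frequency in 89.8% of 3752 cases, with a median SD within the crosses of 0.024. Of the other 4662 genes with a position, 1.97% had one, with a median SD of 0.25. Hamp, Hamp2, Slc40a1 and Fth1 lie among the latter without a frequency, and Ftl1 is among the few of the latter with one (SD within the crosses 0.17). Tfr2, Tfrc, Steap3 and Hpx lie beyond these positions, with SDs of 0.0024 to 0.029.

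**Figure D4:**
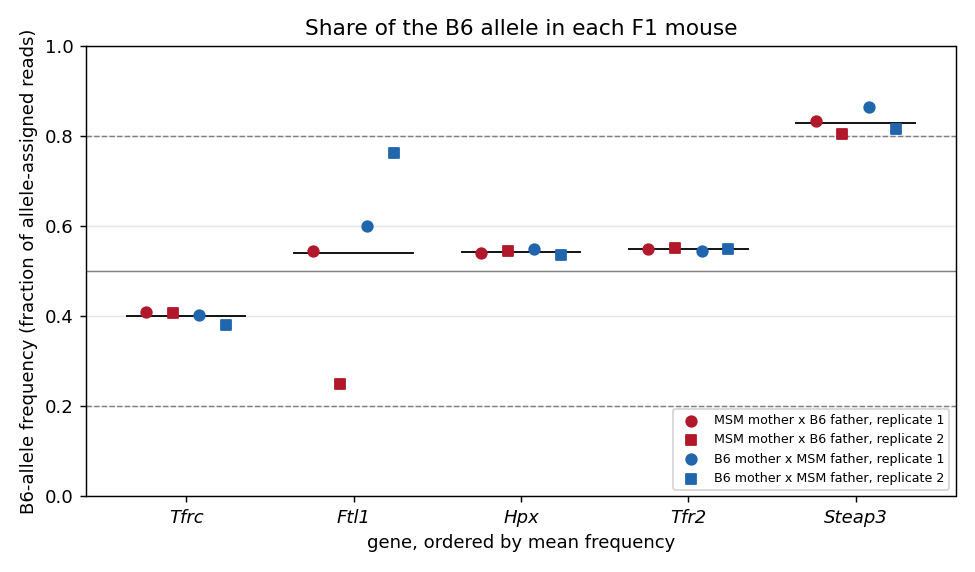
B6-allele frequency of the 5 genes in each mouse (red for an MSM mother, blue for a B6 mother), with the mean as a black line and lines at 0.5, 0.8 and 0.2. Steap3 lies above 0.8 and Tfrc below 0.5 in every mouse, while Ftl1 runs from 0.250 to 0.763.

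In all, 4 of the 5 genes with a frequency were called for imbalance (limma, adjusted p under 0.05), 3 toward B6 and 1 toward MSM. Over all genes with a frequency, 36.2% were called, 22.6% toward B6 and 13.6% toward MSM, so calls of this kind are common in these livers. The median log2 odds of the 5 genes were 0.25, against 0.059 over all genes. With any 1 mouse left out only Steap3 passed the test, and 181 to 514 of all genes did, against 1316 with 4 mice. An exact test that flips the sign of 4 mice cannot give a p below 0.125, and the calls draw on a variance that limma shares between genes.

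No difference in allele use with the strain of the mother was detectable. 0 of 5 genes were called for a difference in frequency between the crosses by limma (0 at an unadjusted p under 0.05), and 0.0826% of all genes were called. The frequencies of the crosses did not overlap in 3 of the 5 genes (Tfr2, Tfrc and Ftl1), and in 34.3% of all genes. The log2 odds differed (MSM mother minus B6 mother) by 0.020 in Tfr2 (95% interval -0.23 to 0.27), 0.10 in Tfrc (-0.19 to 0.40), -0.22 in Steap3 (-0.99 to 0.54), 0.0057 in Hpx (-0.26 to 0.27) and -1.80 in Ftl1 (-4.32 to 0.73). Expression likewise gave 0 calls among the 9 genes (0 at an unadjusted p under 0.05), against 0.0455% of all genes. 4 of the 9 were higher with an MSM mother, and an exact permutation test of 2 against 2 mice cannot go below 0.33.

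Among other genes of iron and heme handling, 87 in 4 lists, 76 were listed and 29 had a frequency. 8 of the 29 (27.6%) were called for imbalance, 6 toward B6 and 2 toward MSM, against 36.2% of all genes with a frequency. None was past 0.8 or 0.2, as 116 of all 3632 genes were by the means taken here. None was called by limma between the crosses for frequency or for expression, and 5 of 76 had an unadjusted p under 0.05 for expression, as did 780 of all 8797 genes. The called share was highest in the heme list, with 5 of 8, and lowest in the list of hepcidin control, with 0 of 9 by limma, and this difference between lists was not tested.

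In uptake and transport of iron and heme, 16 of 24 genes were listed, 7 had a frequency and 1 was called. Lrp1, the receptor that takes up the hemopexin and heme complex, had a mean frequency of 0.643 (log2 odds 0.85, SE 0.05, limma adjusted p = 0.0053), in the same direction as Hpx. Hp, haptoglobin, which binds free hemoglobin, was the most abundant, with 1589 and 1664 FPKM in the MSM mother cross, against 1018 and 1344 in the B6 mother cross and a frequency of 0.534 (limma adjusted p = 0.067). Cp, ceruloplasmin, which oxidizes exported iron, had 281 to 338 FPKM. In hepcidin control, 9 genes had a frequency and 0 were called by limma, with a median log2 odds of 0.012. Stat3 (0.501), Smad4 (0.502) and Jak2 (0.501), chosen after their values were seen, were close to equal use. The means of the 9 ran from 0.480 in Il6st to 0.708 in Cebpa, where the mice ranged from 0.5 to 1.

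In iron sensing, storage and chaperones, 17 of 18 genes were listed, 5 had a frequency and 2 were called. Bola2 and Glrx3, partners in the assembly of cytosolic iron-sulfur proteins, were called in opposite directions, Bola2 toward MSM (mean 0.390, log2 odds -0.65, SE 0.11, limma adjusted p = 0.025) and Glrx3 toward B6 (mean 0.569, log2 odds 0.40, SE 0.05, limma adjusted p = 0.015). Cisd1 and Skp1a were the most abundant of this list, at 183 to 296 and 155 to 229 FPKM. Aco1 and Ireb2, the iron regulatory proteins that bind the IREs, had 74.3 to 79.3 and 19.8 to 24.6 FPKM and no frequency, and were named after their values were seen.

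In heme synthesis and breakdown, all 16 genes were listed, 8 had a frequency and 5 were called, 4 of them toward B6. Cpox, Uros and Fech, enzymes of the pathway, had mean frequencies of 0.693, 0.609 and 0.580, with log2 odds of 1.17 (SE 0.05), 0.64 (SE 0.07) and 0.47 (SE 0.06). Abcb10, a mitochondrial transporter, was at 0.581 (log2 odds 0.47, SE 0.06). The limma adjusted p of these 4 was 0.0029 to 0.016. Urod, named beyond the rule, was called toward MSM (mean 0.448, log2 odds -0.30, limma adjusted p = 0.047). Alas1, the rate-limiting enzyme of heme synthesis in liver, had the highest mean FPKM of the list and varied most, with 107 and 309.9 FPKM in the MSM mother cross, against 25.0 and 56.6 in the B6 mother cross. The mean rests on replicate 2 of the MSM mother cross, and Blvrb, a biliverdin reductase, exceeded Alas1 in the other 3 mice. Both mice with an MSM mother were higher in Alas1, but the log2 difference of 2.24 (SE 0.58) was not called (limma adjusted p = 0.43). Blvrb had 67.0 to 116 FPKM.

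**Figure D5:**
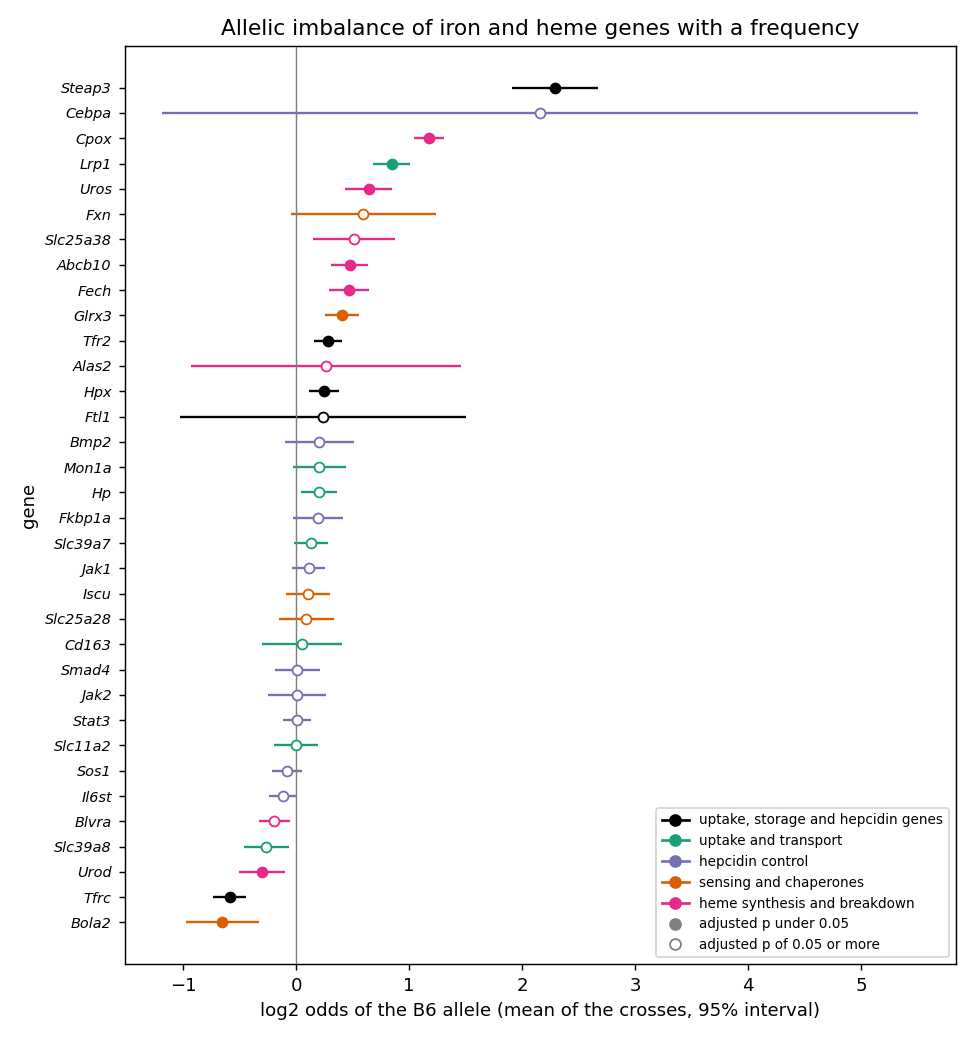
Log2 odds of the B6 allele with 95% intervals from limma for the 5 genes (black) and the 29 list genes with a frequency (colored by list), filled where the adjusted p was under 0.05. Steap3 has the largest value (2.29), Bola2 and Tfrc the lowest (-0.65 and -0.59), and the intervals of Cebpa, Alas2 and Ftl1 are wide.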

How the data were processed

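The deposited values were the FPKM of each gene and a fraction, the B6-allele frequency, in 4 mice. The authors ran Trim Galore and then TopHat2 against an mm10 genome with SNP positions masked, placing each read once, and made the FPKM. For the fraction, the authors sorted reads by allele with SNPsplit and divided B6 reads by all allele-assigned reads. Versions are not given in the sources used here. No counts are in the deposited tables, so the depth behind each value is not stated and no interval is given for a single frequency. FPKM summed to 529024 to 671875 per mouse.

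Tests used limma 3.58.1 in R 4.3.3, on all genes and two-sided, with Benjamini-Hochberg adjustment at 0.05. The log2 odds were taken from frequencies held between 0.01 and 0.99. A model with the cross tested the mean of the crosses against 0 and the difference between them. Expression used log2(FPKM + 1) with a variance trend and a mean FPKM of at least 1. All genes met this minimum. Fold changes on this scale understate those of low genes. The labels do not say whether replicates differ by litter or day. Each p-value sets an effect against the spread between these mice, with a variance that limma shares between genes. The tests were also run on simulated data with added effects larger than most of those reported here. That run does not tell how often effects of the reported size would be called.

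Members and lists were chosen with earlier results of these data known. Named were all members, from each list those called (at most 4 by log2 odds) and the 2 with the highest FPKM, and the 2 nearest genes with a frequency on either side. Symbols of 1 gene were counted once. Positions were from GENCODE M21 and promoters from RefSeq GRCm38.p6. Other scales, filters, pseudocounts and normalizations, a replicate block and fits without each mouse were tried. Sequences were handled with Biopython, and plots were drawn with matplotlib.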

Additional observations from a re-analysis of the deposited data

How the results depend on the processing

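4 genes were called for allelic imbalance, and without each mouse in turn the count was 1, Steap3 in every case. With replicate number as a replicate block the count was 2 (Steap3 and Tfrc), with limma adjusted p of 0.065 in Tfr2 and 0.083 in Hpx, and the calls over all genes fell from 1316 to 775. The calls for expression rose from 4 to 285 of all genes with the block, none of them among the 9 genes. Neither the labels nor the deviations of same-numbered mice (correlation 0.0037 for log2 FPKM and 0.15 for log2 odds) give a pairing. At thresholds of 0.9 and 0.1 the count past them was 0 in place of 1. The other alternatives gave 3 or 4 genes called for imbalance and 1 past 0.8, and none of the genes was called between the crosses under any alternative. Tfrc has a mean FPKM under 5 and was not tested with that filter. Among differences that were not called, the sign turned for Hpx between the crosses with median centring (-0.0065), and for the expression of Tfrc with a pseudocount of 10 (0.00070) and quantile normalization (0.020). Without each mouse in turn, signs also turned in values that were not called. The log2 odds ran from -0.22 to 0.70 in Ftl1, and the difference in log2 odds between the crosses from -0.49 to 0.047 in Steap3 and -0.034 to 0.046 in Hpx. The log2 expression difference ran from -0.50 to 1.09 in Hamp, -0.19 to 0.039 in Tfr2, -0.28 to 0.25 in Tfrc, -0.33 to 0.32 in Fth1, -0.13 to 0.48 in Ftl1, -0.065 to 0.33 in Slc40a1 and -0.24 to 0.060 in Hpx. The cause was not tested. The tables used hold no reads per gene, so the error is known only from the spread between 2 mice of each cross.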
